A study of Rattus norvegicus with 20 samples.

Results

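Interferon-induced genes were followed in the livers of rats fed sesame lignans. The set holds 9 genes, Ifit1, Ifit3, Mx1, Mx2, Oas1a, Isg15, Irf7, Rsad2 and Slfn4, chosen by gene symbol in the platform annotation. They are 9 of the 14217 genes with a single symbol on the array, and they are read by 11 probe sets, 2 each for Mx2 and Slfn4 and 1 for each other gene. The 3 lignan diets held 0.2% sesamolin, episesamin or sesamin by label, the fourth diet was lignan-free, and each was fed for 15 d. The animals were male Sprague-Dawley rats, 4 weeks old when they arrived and given 7 d of a commercial diet first. Each diet had 7 rats, and liver RNA of 5 of them was put on Affymetrix expression arrays, 1 array per rat, after the heaviest and the lightest rat were left out. Sesamin and episesamin are epimers at one ring attachment, and sesamolin carries an extra ether oxygen between one aromatic ring and the central ring system. The set was drawn up with results of these arrays known, and Ifit1 was named for its difference between sesamolin and episesamin, so that contrast is described here and not tested.

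Interferons are secreted when a cell senses viral nucleic acid or related danger signals. They bind receptors that switch on the kinases Jak1, Tyk2 and Jak2, and the STAT proteins then carry the signal to the nucleus. There, a complex that holds Stat2 and Irf9 binds a short promoter element of paired GAAA repeats and switches on a common programme of antiviral genes. In the liver both hepatocytes and Kupffer cells, its resident macrophages, run this programme.

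RefSeq promoter windows, 250 bases before to 50 bases after the start used in that table, covered 6 of the 9 genes (build GRCr8). The core of the response element, searched on either strand as GAAA, any 2 bases and GAAA again, lay in 4 of these 6 windows (66.7%), in Ifit3, Oas1a, Irf7 and Rsad2, and was not found in the windows of Mx1 and Slfn4. Among the windows of genes tested on the array, 326 of 10729 held it (3.04%), and among all 33469 windows 3.92%. The stretches of 30 bases around the match are printed because the element is a feature that the selection did not use. They read 5′ to 3′ on the gene's own strand, with the match in capitals; Oas1a holds 2 overlapping matches.
Ifit3, chr1:241527272-241527301, + strand: tttaagtctgTTTCAGTTTCtagtttccac
Oas1a, chr12:41330418-41330447, + strand: ctctcggGAAATGGAAACTGAAAatcttgt
Irf7, chr1:205800074-205800103, - strand: gacagtttaggTTTCATTTTCccgagacgc
Rsad2, chr6:48788249-48788278, - strand: tctggttcaacTTTCATTTTCagaaaacag
A match is a description of the letters, not evidence of binding. The start used for a window can differ from the outer end of the gene in the annotation, and the matches of Oas1a and Irf7 lie inside the gene coordinates that follow. In the same annotation Ifit3 (chr1:241527326-241532469) and Ifit1 (chr1:241565197-241567262) are neighbours on chromosome 1, Mx1 (chr11:50269056-50294699) and Mx2 (chr11:50375101-50399373) on chromosome 11. Irf7 lies at chr1:205796956-205800543, Oas1a at chr12:41330423-41341130, Isg15 at chr5:172066369-172067656, Rsad2 at chr6:48774985-48788245 and Slfn4 at chr10:68492135-68515674. RefSeq gives Slfn3 as a synonym of Slfn4, Oas1g of Oas1a and Mx3 of Mx2, and these belong to families of close copies, so signal from a related transcript cannot be separated from that of the named gene.

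Levels below are normalized intensities per probe set, on a linear scale after quantile normalization of the 20 arrays. Levels of different genes are set beside each other only to pick or name genes of high level. Log2 changes come with the standard error of a limma fit to all 20 arrays, and a gene is called changed when its adjusted p over 11576 genes is below 0.05. Of several probe sets for a gene the one of highest mean intensity was used, and all 9 genes passed the filter on dim probe sets, set at an intensity of 17.8 on at least 5 arrays. The second probe sets of Mx2 and Slfn4 lay below that intensity on 18 of 20 arrays each, the exceptions reaching 109 for Mx2 on sesamin array 1 and 19.4 for Slfn4 on episesamin array 3. Raw array means ran from 159 to 271, correlations between arrays of the same diet from 0.959 to 0.980, and 9 hepatocyte markers summed to between 74092 and 84820 on every array. Of these 9 markers, 2 were called lower for sesamolin against lignan-free, where 2.95% of all genes were.

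Ifit1, whose protein binds viral RNA that lacks the host cap structure, set sesamolin and episesamin apart. In sesamolin livers it read 179, 89.1, 112, 88.9 and 84.6 on arrays 1 to 5. In episesamin livers it read 26.3, 31.8, 22.6, 159 and 39.98. Episesamin array 4 stood inside the sesamolin range, while the other 4 episesamin arrays all lay below every sesamolin array. The means were 111 ± 39.8 in sesamolin livers and 55.9 ± 58.0 in episesamin livers (SD, n = 5 each), a log2 difference of 1.22 ± 0.34 (SE), or 2.33-fold. Across the array 0.406% of genes were higher without overlap in sesamolin than in episesamin livers and 0.397% lower; Ifit1 was among neither because of episesamin array 4.

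The other 2 diets lay between these. Ifit1 read 79.5, 104, 100, 74.5 and 65.9 in sesamin livers, with a mean of 84.9 ± 16.7. It read 65.4, 62.3, 83.5, 73.9 and 63.7 in lignan-free livers, with a mean of 69.8 ± 8.92 (SD, n = 5 each). By mean the order was sesamolin, sesamin, lignan-free, episesamin, and each diet overlapped its neighbours in that order. All 5 sesamolin arrays lay above all 5 lignan-free arrays, the lowest sesamolin array at 84.6 against a highest lignan-free array of 83.5, and 3.7% of all genes were higher without overlap in that comparison.

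No test of Ifit1 passed. The log2 change was 0.58 ± 0.34 for sesamolin against lignan-free (limma adjusted p = 0.361), -0.64 ± 0.34 for episesamin against lignan-free (adjusted p = 0.313) and 0.25 ± 0.34 for sesamin against lignan-free (adjusted p = 0.935). Between lignans it was -0.89 ± 0.34 for episesamin against sesamin (adjusted p = 0.257) and 0.33 ± 0.34 for sesamolin against sesamin (adjusted p = 0.732). A single array decided the episesamin values. Without episesamin array 4 the log2 change was -1.09 against lignan-free (adjusted p = 0.00341) and -1.34 against sesamin (adjusted p = 0.0024). Without the 6 arrays of raw mean below 200, which include episesamin array 4, sesamolin against lignan-free was 0.84 (adjusted p = 0.0478). Since Ifit1 was picked from these arrays, these tests are not independent of its choice.

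Ifit3, a partner protein of Ifit1, varied little. It read 72.7, 49.1, 57.9, 50.3 and 52.1 in sesamolin livers, 43.7, 43.4, 48.2, 66.3 and 48.2 in episesamin livers, 69.4, 41.1, 58.3, 40.4 and 56.9 in sesamin livers and 32.5, 49.4, 40.9, 47.9 and 57.1 in lignan-free livers. All diets overlapped. Its spread within diets, a log2 SD of 0.26, was close to the median of all genes, 0.26. The chromosomal neighbours Ifit1 and Ifit3 correlated at 0.47 within diets.

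**Figure D1:**
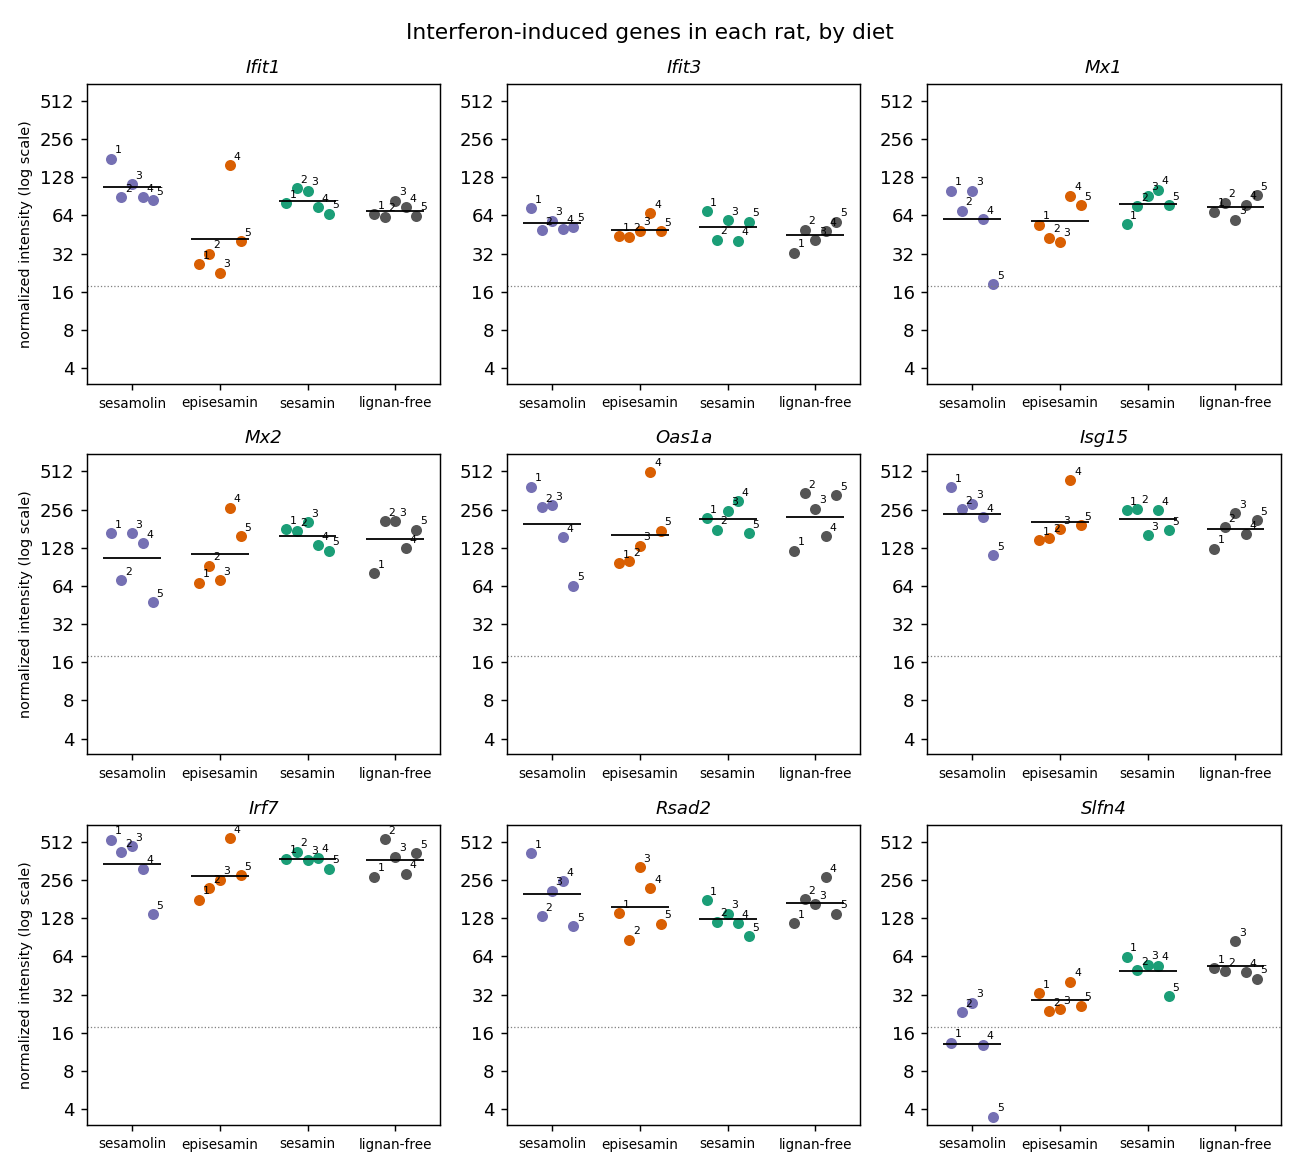
Normalized intensity of each gene (vertical axis, log scale) on each array, by diet, with points numbered by rat and a bar at the mean of the log values; the dotted line marks the filter level of 17.8. Episesamin array 4 is the highest episesamin point for 8 of 9 genes, Rsad2 being the exception, and sesamolin array 5 is the lowest sesamolin point for 8 of 9, with Ifit3 the exception.

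Slfn4 was the only one of the 9 genes that was called against the lignan-free diet, as lower in sesamolin livers, a comparison in which 6.24% of all genes were called and 2.95% as lower. Schlafen proteins restrain growth and virus replication, and mouse Slfn4 is known as an interferon-induced gene of macrophages and other myeloid cells. In sesamolin livers Slfn4 read 13.3, 23.3, 27.6, 12.8 and 3.47. In episesamin livers it read 32.7, 23.7, 24.5, 40.3 and 26.1. In sesamin livers it read 63.6, 49.6, 55.1, 54.2 and 30.9, and in lignan-free livers 51.5, 49.1, 84.5, 47.8 and 42.7. Every sesamolin and every episesamin array lay below every lignan-free array, as was the case for 3.23% and 3.04% of all genes, while sesamin and lignan-free arrays overlapped. Sesamolin array 5 was the lowest of all.

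The means were 16.1 ± 9.52 in sesamolin, 29.5 ± 7.04 in episesamin, 50.7 ± 12.1 in sesamin and 55.1 ± 16.7 in lignan-free livers (SD, n = 5 each). Against lignan-free the log2 change was -1.57 ± 0.27 for sesamolin (95% interval -2.14 to -0.99, limma adjusted p = 0.00162). Since 3 of the 5 sesamolin arrays lay below the filter level, the change was also computed with those arrays set at that level, which gave 2.60-fold lower. That value does not carry the sampling error, which the interval does. For episesamin the change was -0.77 ± 0.27 (adjusted p = 0.114) and for sesamin -0.10 ± 0.27 (adjusted p = 0.967). Without sesamolin array 5 the episesamin change was -0.78 and passed the test (adjusted p = 0.0412). The sesamolin call held in all 38 alternative settings, with adjusted p up to 0.0263.

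Between lignans, the Slfn4 change for sesamolin against sesamin was -1.46 ± 0.27 on the log2 scale (95% interval -2.04 to -0.89, limma adjusted p = 0.00928), and the 2 sets of arrays did not overlap. With the sesamolin arrays below the filter level set at that level, Slfn4 was 2.40-fold lower. In this comparison 1.81% of genes were called, 0.812% as lower, and 2% were lower without overlap. The call was lost when only those 2 diets were fitted (adjusted p = 0.0891) and when the 4 arrays numbered 1 were left out (adjusted p = 0.0733). Episesamin against sesamin gave -0.67 ± 0.27 (95% interval -1.24 to -0.10, adjusted p = 0.292). Sesamolin against episesamin gave -0.79 ± 0.27, as a description.

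Levels of Kupffer cell markers moved with Slfn4. The 11 measured Kupffer cell and macrophage markers summed to 4553 to 6300 in sesamolin livers, 5482 to 6520 in episesamin livers, 5488 to 8471 in sesamin livers and 7647 to 8330 in lignan-free livers. Of them, 7 of 11 were called lower for sesamolin against lignan-free, where 2.95% of all genes were, among them the complement genes C1qa at -0.87 ± 0.13 (adjusted p = 0.00036) and C1qc at -0.80 ± 0.14 (adjusted p = 0.00118), and the Kupffer cell lectin Clec4f at -0.74 ± 0.16 (adjusted p = 0.0109). For episesamin 3 of 11 were called lower (2.21% of all genes), for sesamin 0 of 11 (0.432% of all genes were called in either direction), and 2 of 11 for sesamolin against sesamin (0.812% of all genes). Cd14, the lipopolysaccharide co-receptor, had positive values that were not called, 0.42 ± 0.24 for sesamolin (adjusted p = 0.356), 0.41 ± 0.24 for episesamin (adjusted p = 0.371) and 0.21 ± 0.24 for sesamin (adjusted p = 0.911). None of the 11 was near 0, the dimmest averaging 74.4. The 9 endothelial markers also summed lower, 2523 to 3123 in sesamolin, 2651 to 2992 in episesamin, 3041 to 3333 in sesamin and 3134 to 3765 in lignan-free livers. Against lignan-free, 2 of these 9 were called lower for sesamolin and 2 of 9 for episesamin. Calls were thus not limited to Kupffer cell markers, and 2 of 9 hepatocyte markers were also called lower for sesamolin. Over the 20 arrays Slfn4 correlated with the Kupffer sum at 0.76, and within diets at 0.36, so most of the likeness lay between diets. The genes nearest to Slfn4 over the 20 arrays included the macrophage genes Aif1 (r = 0.85) and C1qc (r = 0.82), named here after their values were seen. Between them ranked Hsp90b1 (r = 0.84), Alcam, Gpc4 and Akr1c14 (r = 0.83 each), so the nearest genes were not limited to macrophage genes. The part of these markers in the Slfn4 result was not tested, and in whole liver fewer cells of a type and less RNA per cell cannot be told apart.

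**Figure D2:**
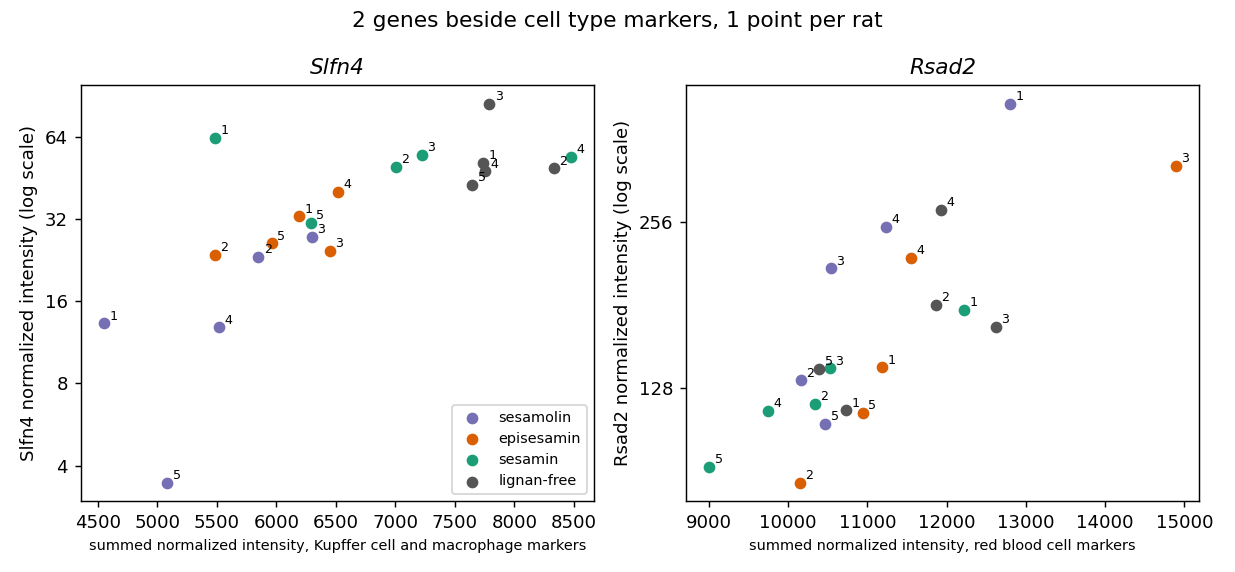
Slfn4 against the summed Kupffer cell and macrophage markers (left) and Rsad2 against the summed red blood cell markers (right), both as normalized intensity with a log vertical axis, 1 point per rat numbered within its diet. On the left, sesamolin and episesamin arrays lie at the low end of the horizontal axis, with sesamin arrays 1 and 5 among them; on the right, sesamolin array 1 and episesamin array 3 have the highest Rsad2 and the highest red blood cell sums.

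Mx1 and Mx2, dynamin-like GTPases that block virus replication, showed no called change. Mx1 read 100, 69.4, 99.9, 59.6 and 18.4 in sesamolin livers, 53.9, 42.6, 39.6, 91.2 and 76.9 in episesamin livers, 54.6, 75.5, 91.4, 102 and 77.3 in sesamin livers and 68.6, 80.3, 59.0, 77.7 and 92.2 in lignan-free livers. Sesamolin array 5 alone stood far below the rest, and the other arrays of all diets overlapped. The Mx1 log2 change for sesamolin against lignan-free was -0.27 ± 0.32 with all arrays and 0.10 without sesamolin array 5. Mx2 read 166, 71.0, 167, 139 and 47.5 in sesamolin livers, 67.9, 92.5, 71.0, 265 and 158 in episesamin livers, 178, 173, 204, 134 and 121 in sesamin livers and 80.3, 207, 207, 127 and 178 in lignan-free livers. It was again lowest on sesamolin array 5 and highest on episesamin array 4. The Mx2 changes against lignan-free were -0.49 ± 0.38 for sesamolin, -0.39 ± 0.38 for episesamin and 0.07 ± 0.38 for sesamin (limma adjusted p = 0.502, 0.612 and 0.984).

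Oas1a makes the oligoadenylates that activate the antiviral nuclease RNase L. It read 387, 267, 278, 156 and 64.0 in sesamolin livers, 96.6, 100, 132, 508 and 174 in episesamin livers, 219, 177, 251, 297 and 166 in sesamin livers and 121, 343, 260, 157 and 332 in lignan-free livers. The diets overlapped fully, and both extremes of the 20 arrays, a 7.94-fold span, lay in lignan-fed rats. Its log2 changes against lignan-free were -0.18 ± 0.46 for sesamolin, -0.45 ± 0.46 for episesamin and -0.05 ± 0.46 for sesamin (limma adjusted p = 0.866, 0.635 and 0.992). The within-diet SD of Oas1a, 0.77 on the log2 scale, exceeded that of 97.9% of genes.

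Isg15 encodes a ubiquitin-like protein that is attached to other proteins during infection. It read 385, 257, 285, 222 and 112 in sesamolin livers, 146, 154, 180, 438 and 193 in episesamin livers, 254, 261, 160, 252 and 177 in sesamin livers and 126, 186, 240, 164 and 211 in lignan-free livers. Episesamin array 4 was the highest of all 20 arrays and sesamolin array 5 the lowest. The sesamolin change against lignan-free was 0.36 ± 0.30 (95% interval -0.27 to 0.998, limma adjusted p = 0.536).

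Irf7, the transcription factor that amplifies interferon production, had the same extremes. It read 531, 423, 474, 314 and 138 in sesamolin livers, 179, 220, 257, 546 and 281 in episesamin livers, 376, 427, 370, 383 and 314 in sesamin livers and 271, 540, 391, 287 and 416 in lignan-free livers. Sesamin arrays were the most alike, with a log2 SD of 0.16 against 0.77 in sesamolin, 0.59 in episesamin and 0.40 in lignan-free livers. Its changes against lignan-free were -0.11 ± 0.32 for sesamolin, -0.42 ± 0.32 for episesamin and 0.01 ± 0.32 for sesamin (limma adjusted p = 0.886, 0.501 and 0.995).

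Rsad2 encodes viperin, a radical SAM enzyme that limits virus replication. It read 418, 132, 211, 251 and 110 in sesamolin livers, 140, 86.5, 323, 220 and 116 in episesamin livers, 178, 120, 139, 116 and 92.2 in sesamin livers and 117, 181, 165, 269 and 139 in lignan-free livers. Its highest arrays were sesamolin 1 and episesamin 3, so episesamin array 4 did not stand out here. The largest log2 difference was 0.65 ± 0.35 for sesamolin against sesamin (95% interval -0.09 to 1.38, limma adjusted p = 0.416).

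Rsad2 correlated more closely with genes of red blood cells than with the other 8 genes. The nearest genes over the 20 arrays were Ahsp, the chaperone of alpha haemoglobin (r = 0.83), Slc4a1, the band 3 anion exchanger (r = 0.79), the blood group gene Rhd (r = 0.77) and Alas2, the haem synthesis enzyme of red cells (r = 0.76), all named after their values were seen. The 7 measured red blood cell markers, a list added after the data were seen, summed to 10161 to 12800 in sesamolin, 10150 to 14893 in episesamin, 9008 to 12219 in sesamin and 10395 to 12622 in lignan-free livers. Rsad2 correlated with that sum at 0.78 over the 20 arrays and at 0.84 within diets, while its within-diet correlations with the other 8 genes ran from 0.27 to 0.52. The list holds Ahsp, Slc4a1, Rhd and Alas2 themselves. It also holds Hbb, the marker of highest level, which averaged 9572 and so made up most of the sum. Hbb was among the genes near Rsad2 too (r = 0.74). The correlation with the sum is therefore no separate support for the likeness to single genes. No red blood cell marker was called in a comparison, and the part of these cells in Rsad2 levels was not tested.

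Counted over the comparisons, few of the 9 genes were called. Against lignan-free, 1 of 9 was called for sesamolin, Slfn4, where 6.24% of genes were. None of 9 was called for episesamin, where 5.12% of genes were. None of 9 was called for sesamin, where 0.432% of genes were. Between lignans, 0 of 9 were called for episesamin against sesamin, where 1.23% of genes were. Slfn4 was the 1 of 9 called for sesamolin against sesamin, where 1.81% of genes were. A share of 1 in 9 rests on a single gene, and it was chosen with these values known.

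The median log2 change of the 9 genes was -0.11 for sesamolin, -0.39 for episesamin and 0.07 for sesamin against lignan-free, beside medians of -0.01, -0.02 and -0.01 over all genes tested. For episesamin 7 of 9 genes had a negative value, and 1 of 9, Slfn4, was lower without overlap. The 8 genes that were not called for sesamolin had adjusted p between 0.332 and 0.886. Intervals of the 9 genes reached log2 changes of -1.40 to 0.79 for episesamin, so changes of moderate size cannot be told from none at 5 rats per diet.

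**Figure D3:**
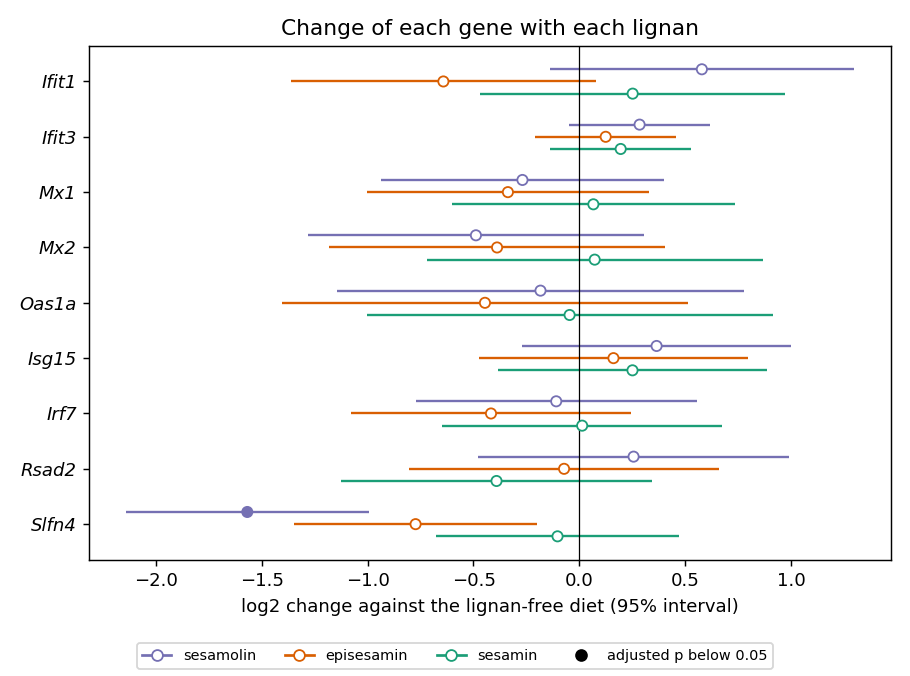
Log2 change of each gene against the lignan-free diet for sesamolin, episesamin and sesamin (points) with 95% intervals (lines) from the limma fit, filled where the adjusted p was below 0.05. Only Slfn4 with sesamolin is filled, at -1.57, and the intervals of the other genes with sesamolin include 0.

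In 8 of the 9 genes most of the variance lay between rats of the same diet, Slfn4 being the exception. The within-diet SD of 8 of 9 genes was above the array-wide median of 0.26 on the log2 scale, and ran from 0.46 for Slfn4 to 0.77 for Oas1a among those 8. Diet accounted for 70.1% of the variance of Slfn4 and 42.9% of that of Ifit1, against 5.91% to 17.0% for the other 7 genes and a median of 19.8% over all genes. The shares of Slfn4 and Ifit1 exceeded those of 97.8% and 85.6% of all genes. Ifit1 was picked for a difference between diets, and the set was drawn up with results known. These shares are therefore not independent of that choice. To place each rat, every gene was standardised over the 20 arrays and the 9 values were averaged. Episesamin array 4 was highest at 1.29 SD, followed by sesamolin array 1 at 1.16 and sesamolin array 3 at 0.66. Sesamolin array 5 was lowest at -1.62, followed by episesamin array 2 at -1.05 and episesamin array 1 at -0.99. The score spread over an SD of 1.05 in sesamolin, 0.96 in episesamin, 0.26 in sesamin and 0.48 in lignan-free livers. Its correlation with the raw mean of an array was 0.18, with the actin 3′ to 5′ ratio -0.22 and with the GAPDH ratio 0.06. With the log2 of the summed T, B and NK lymphocyte markers it correlated at 0.43, at 0.54 within diets and at 0.10 without episesamin array 4 and sesamolin array 5; with neutrophil markers the values were 0.40, 0.31 and 0.37. The 12 lymphocyte markers above the filter, of 18 listed, summed to 281 to 410 in sesamolin, 342 to 420 in episesamin, 318 to 425 in sesamin and 354 to 447 in lignan-free livers, with Cd2, Ncr1, Cd8a and Cd3d below the filter. The 4 neutrophil markers above the filter, of 10 listed, summed to 68.3 to 178 in sesamolin, 48.5 to 118 in episesamin, 72.0 to 345 in sesamin and 72.8 to 204 in lignan-free livers, with Csf3r and Camp below it. The part of these cells in the score was not tested. Episesamin array 4 and sesamolin array 5 had raw means of 195 and 188, among the 6 arrays below 200. Their actin ratios of 1.99 and 2.52 lay toward opposite ends of the range of 1.92 to 2.69 over all arrays. Correlations of single genes with the actin ratio ran from -0.32 for Irf7 to 0.11 for Ifit3.

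**Figure D4:**
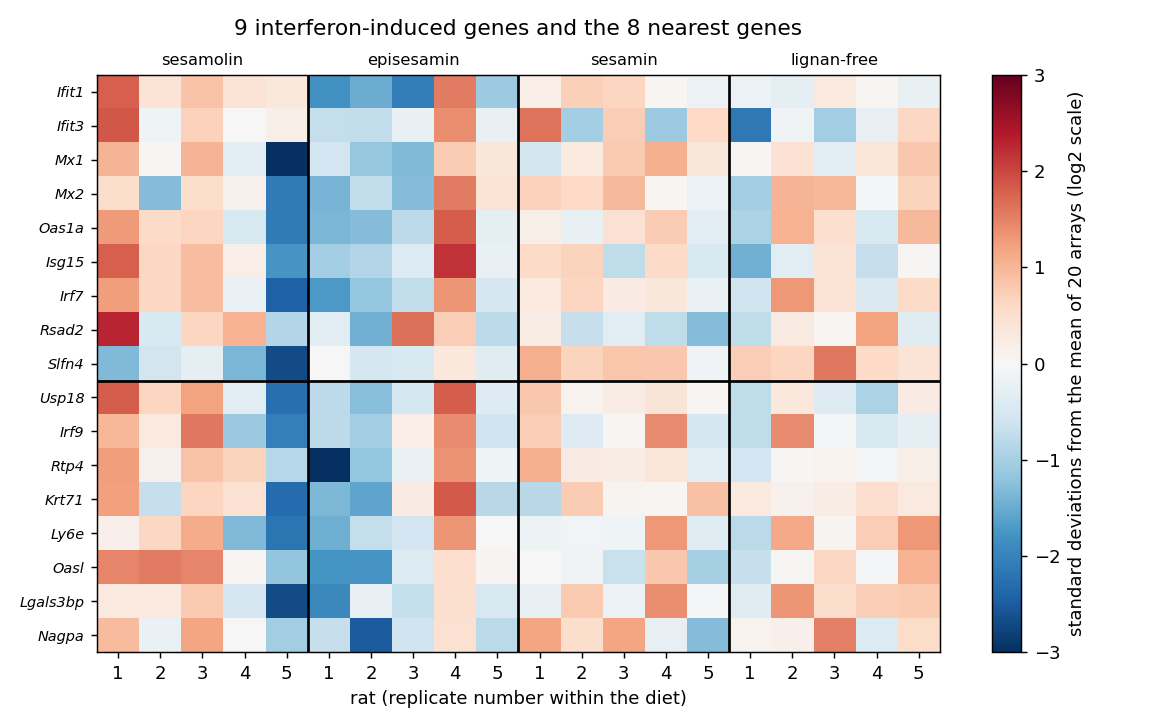
Standardised log2 level (colour, in SD from the mean of the 20 arrays) of the 9 genes, above the line, and of the 8 genes nearest to their mean, below it, with 1 column per rat grouped by diet. Episesamin array 4 and sesamolin array 1 are high for most genes and sesamolin array 5 is low for most, while most sesamin cells are paler.

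The genes varied together from rat to rat. After the diet means were removed, all 36 pairs correlated positively, with a median r of 0.57 and a range of 0.05 to 0.95 over the 20 arrays. Mx1, Mx2, Oas1a, Isg15 and Irf7 were a tight group, their 10 pairs having a median of 0.80, and Oas1a with Irf7 gave the highest, 0.95. Ifit1 correlated with these genes at 0.50 (Mx1) to 0.73 (Isg15), partly within the range of that group. Slfn4 with Ifit3 gave the lowest. Without episesamin array 4 and sesamolin array 5, the arrays farthest from the median of the score, the median over the 36 pairs was 0.33 with a lowest value of -0.20, and that of the 10 pairs was 0.56. Oas1a and Irf7 still correlated at 0.87. All values come from one table, so shared array effects enter each pair.

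**Figure D5:**
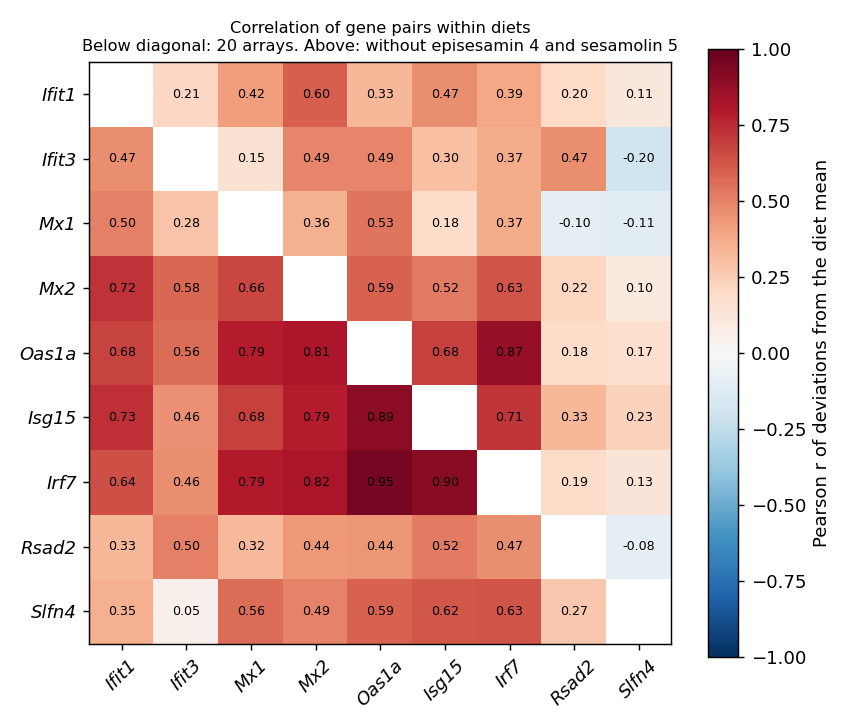
Pearson r of the deviations from the diet mean for each pair of the 9 genes, below the diagonal over the 20 arrays and above it without episesamin array 4 and sesamolin array 5. The block of Mx1, Mx2, Oas1a, Isg15 and Irf7 runs from 0.66 to 0.95 below the diagonal and includes the highest value. Ifit1 reaches 0.73 with Isg15 there, and Rsad2 and Slfn4 hold the lowest values above the diagonal.

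Among the 11567 other genes tested, the 8 nearest to the mean of the 9 were largely interferon-induced themselves. Usp18, the protease that removes Isg15 and dampens the interferon receptor, came first (r = 0.91, rho = 0.88 and r = 0.84 without the 2 extreme arrays). Irf9, the DNA-binding partner of Stat2, had r = 0.80, and Rtp4, an interferon-induced receptor transporter protein, r = 0.79. They were followed by Krt71, a hair follicle keratin, at 0.77, Ly6e, an interferon-induced surface protein, at 0.77, Oasl, a relative of Oas1a, at 0.74, Lgals3bp, a secreted glycoprotein, at 0.74, and Nagpa, a lysosomal sorting enzyme, at 0.73. Krt71 had a rho of 0.51 and a mean level of 27.7, close to the filter. Over all genes the median r was near 0 and its 95th percentile 0.35. Of the 8 nearest genes 5 belonged to the interferon pathway lists described next, and of the 40 nearest 11 did, where the lists hold 97 of the 11567 genes. The median r of those 97 genes was 0.19, below that 95th percentile, so much of the pathway did not follow the 9 genes closely. None of the 8 was called in a comparison.

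Usp18 shows the same rats. It read 475, 281, 363, 182 and 73.4 in sesamolin livers, 146, 116, 164, 476 and 176 in episesamin livers, 303, 221, 233, 251 and 215 in sesamin livers and 148, 242, 176, 135 and 235 in lignan-free livers. Sesamolin array 1 and episesamin array 4 were again the highest and sesamolin array 5 the lowest. The response element core was found in 1 of the 5 RefSeq windows given for these 8 genes, that of Lgals3bp, which is printed to be set beside the 4 above.
Lgals3bp, chr10:104127879-104127908, - strand: gtgttttctgGAAATCGAAActagactagg

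The wider interferon pathway was read through 7 lists, from ligands to antigen presentation, with 97 genes tested outside the 9. Of these, 2 were called higher and 7 lower for sesamolin against lignan-free (9.28%), where 3.28% of all genes were called higher and 2.95% lower. For episesamin 1 was called higher and 5 lower (6.19%), where 2.91% of all genes were called higher and 2.21% lower. For sesamin 0 were called, where 0.432% of all genes were. For sesamolin against sesamin 1 was called higher (1.03%), where 1% of all genes were. For episesamin against sesamin 0 were called, where 1.23% of all genes were. The median change of the 97 genes was -0.10 for sesamolin, -0.17 for episesamin and -0.07 for sesamin against lignan-free.

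Of ligands, only Il18, a cytokine that elicits interferon gamma, was measured above the filter, 1 gene of 4 on the array. It averaged 76.1 in sesamolin, 71.7 in episesamin, 72.8 in sesamin and 120 in lignan-free livers, and fell by 0.62 ± 0.18 on the log2 scale for sesamolin (limma adjusted p = 0.0461) and by 0.74 ± 0.18 for episesamin (adjusted p = 0.0207). Its sesamin change was -0.69 ± 0.18 (adjusted p = 0.154). The sesamolin call held in 15 of 38 other settings (adjusted p up to 0.115) and the episesamin call in 33. The other 3 ligands on the array lay below the filter.

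Of 11 tested genes for receptors and their kinases and STAT proteins, 3 were called, all for sesamolin. The receptor chain Ifngr2 rose by 0.33 ± 0.09 against lignan-free (adjusted p = 0.0306) and by 0.41 ± 0.09 against sesamin (adjusted p = 0.0202). The kinase Jak2 fell by 0.64 ± 0.15 (adjusted p = 0.0177) and Stat2 by 0.32 ± 0.09 (adjusted p = 0.047) against lignan-free. Jak1 and Ifngr1 had the highest levels of the list among those not called, with means of 1822 and 501.

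Of 9 tested sensors and adaptors none was called, Myd88 and Mavs being those of highest level. Of 7 interferon regulatory factors 1 was called, Irf5, a factor of myeloid cells, which fell by 0.98 ± 0.24 for episesamin against lignan-free (adjusted p = 0.023). Every episesamin array of Irf5 lay below the filter level, at 7.07 to 16.4, so the size of that fall is uncertain. The log2 change was -1.31 with no offset and -0.69 with an offset of 16. The Irf5 call held in 30 of 37 other settings. Irf3 and Irf2bp2, of higher level, were not called. Of 8 tested genes of Isg15 conjugation and negative regulation 1 was called, the phosphatase Ptpn6, which fell by 0.53 ± 0.13 for episesamin (adjusted p = 0.0259). Ube2l6, the enzyme that passes Isg15 on to its targets, and Usp18 were not.

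Of 39 tested antiviral effectors 2 were called, in opposite directions. Tor3a, an ATPase of the torsin family first described as interferon-responsive, read 160, 219, 278, 159 and 296 in sesamolin livers, 230, 197, 155, 116 and 166 in episesamin livers, 172, 126, 123, 102 and 103 in sesamin livers and 87.4, 64.4, 58.2, 50.9 and 97.7 in lignan-free livers. All 15 lignan arrays lay above all 5 lignan-free arrays, in comparisons where 3.7% of genes were higher without overlap for sesamolin, 3.81% for episesamin and 1.09% for sesamin. The change was 1.55 ± 0.22 for sesamolin (limma adjusted p = 0.00018), 1.20 ± 0.22 for episesamin (adjusted p = 0.00267) and 0.77 ± 0.22 for sesamin (adjusted p = 0.247). Over the 20 arrays Tor3a correlated with the mean of the 9 genes at -0.34. The GTPase Gbp2 fell by 0.55 ± 0.16 for sesamolin (adjusted p = 0.0472) and by 0.61 ± 0.16 for episesamin (adjusted p = 0.0321). Ifi27 and Ifi27l2b, the effectors of highest level, were not called.

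Of 22 tested genes of antigen presentation and chemokines, 3 were called lower for sesamolin and 1 for episesamin. The class II chains RT1-Ba and RT1-Da fell by 0.68 ± 0.17 (adjusted p = 0.0204) and 0.77 ± 0.21 (adjusted p = 0.0355) for sesamolin. The immunoproteasome subunit Psmb8 fell by 0.43 ± 0.12 for sesamolin (adjusted p = 0.047) and by 0.46 ± 0.12 for episesamin (adjusted p = 0.0385). B2m and Psme1, of highest level, were not called. When all probe sets of RT1-Ba were averaged its change was -0.11 (adjusted p = 0.751). Macrophages also express Il18, Irf5, Ptpn6 and class II genes, and the Kupffer marker sums given above moved in the same direction against lignan-free. The Kupffer sum had its lowest mean in sesamolin livers (5462), as did RT1-Ba (294) and RT1-Da (750). Il18, Irf5 and Ptpn6 had theirs in episesamin livers (71.7, 12.5 and 98.4). The part of macrophages in these changes was not tested.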

How the data were processed

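The authors deposited a table of linear intensity values with 31099 probe sets and 20 arrays; per the labels' protocols, biotin-labelled cRNA of each rat was hybridised separately. Which software made them is not given in the sources used. Raw array means ranged from 159 to 271, so quantile normalization was applied, followed by log2 after addition of 5.85, which is the 20th percentile. Of probe sets with 1 gene symbol in the platform annotation (20826, for 14217 genes), those above 17.8 (the 40th percentile) on at least 5 arrays were kept, and 1 probe set per gene, that of highest mean intensity, was used, which left 11576 genes. A model with 4 diet means was fitted with limma 3.58.1 (R 4.3.3), leaving 16 residual degrees of freedom, with two-sided moderated tests and Benjamini-Hochberg adjustment over the 11576 genes. Depth has no equivalent on arrays, and the number of arrays limits precision.

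The members, the 7 pathway lists and the marker lists were chosen with earlier results of these data known. Named genes are the 9 members, from each pathway list up to 4 called genes and up to 2 of highest level that were not called, and the 8 genes with the highest Pearson r with the mean of the members. Replicates are separate rats. Replicate numbers were not taken to pair the samples, since of 30 same-numbered pairs across diets 10 correlated above 0.1 after diet means were removed (range -0.06 to 0.25). These 10 include all 6 pairs of arrays numbered 1 (0.13 to 0.25), and a setting without those 4 arrays was among the alternatives. For Slfn4 in sesamolin livers, where most arrays lay below the filter level, the bound sets each such array at that level. No such bound was computed for Irf5. Alternatives covered normalization, offset, filter, probe set choice, eBayes form, array weights, covariates, the replicate block and leaving out arrays. On simulated arrays for sesamolin against lignan-free with 11576 genes, 80 of 100 genes changed by a log2 of 1 and 100 of 100 changed by 2 were recovered, with 4 false calls. The changed genes were drawn at random and given independent noise, with no shared array effects. Since 8 of the 9 members varied more within diets than the median gene, these recovery rates do not carry over to them.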

Additional observations from a re-analysis of the deposited data

Results flagged for a closer look

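In a group of 5 arrays a single array can lie far from its 4 neighbours, and chance gives such a gap in about 1 in 20 groups. The 9 genes in 4 diets gave 36 groups. These were read on the same 20 arrays and the genes varied together, so they are not independent draws. Of the 36 groups 4 had such a gap. Episesamin array 4 accounted for 3 of these 4. Its Ifit1 level was 159, with the next highest episesamin array at 39.98. Its Isg15 level was 438, with the next at 193, and its Ifit3 level was 66.3, with the next at 48.2. The fourth was Slfn4 on lignan-free array 3, at 84.5 with the next lignan-free array at 51.5. Without lignan-free array 3, Slfn4 was still called for sesamolin. The Slfn4 change against lignan-free also differed between lignans, by -1.46 on the log2 scale for sesamolin minus sesamin.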

How the results depend on the processing

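With 38 alternative settings, 180 of 190 counts of called members and 1698 of 1710 single member values stayed on the same side of the threshold, or for counts within 1.5 times. Of the single values, 73 had the opposite sign in another setting, none of them called in either. No member was called for sesamin against lignan-free in any setting. For episesamin against lignan-free 1 member was called without the dim arrays and 2 without episesamin array 4 and sesamolin array 5, a setting chosen after seeing the data, and leaving out 1 array gave 0 to 1. For sesamolin against lignan-free 2 were called without the dim arrays. For episesamin against sesamin 1 was called without the dim arrays, 1 without episesamin array 4 and sesamolin array 5, and 0 to 1 when 1 array was left out. For sesamolin against sesamin 0 were called when only these 2 diets were fitted, and 0 when the 4 arrays numbered 1 were left out. The cause was not tested, beyond the smaller number of arrays in these fits. The difference of Ifit1 between sesamolin and episesamin ran from 0.89 to 1.79.

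With the replicate number as a block the counts were 0 for sesamin, 0 for episesamin and 1 for sesamolin against lignan-free, 0 for episesamin against sesamin and 1 for sesamolin against sesamin, as without it; Slfn4 kept its sesamolin call with an adjusted p of 0.000836. Pathway calls were less firm, 191 of 606 falling past the threshold. Tor3a was called for sesamolin in all 38 settings and for episesamin in 37, the exception being no normalization between arrays (0.93, adjusted p = 0.0665). Stat2 was called in 14, Gbp2 in 10 for sesamolin and 27 for episesamin, Psmb8 in 13 and 25, and Il18 in 15 and 33. Ifngr2 against lignan-free was called in 24 and was 0.09 with no normalization between arrays (adjusted p = 0.83).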
